A study of Arabidopsis thaliana with 21 samples.

Results

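The genes described here are 10 intracellular immune receptor genes of Arabidopsis thaliana whose read counts differed between the ecotypes Landsberg erecta (Ler) and Columbia-0 (Col-0), or that stand beside such a gene. They were chosen by locus from earlier results of these data, 10 of the 26496 gene models in the deposited count tables. RPP4 (AT4G16860), SNC1 (AT4G16890), AT4G16920 and RPP5 (AT4G16950) lie in 1 cluster on chromosome 4. AT4G19500 and AT4G19510 are neighbours further along chromosome 4. AT5G46510 (VICTL) and AT5G46520 (VICTR) are neighbours on chromosome 5, where AT5G48620 and DAR4 (AT5G17890, also named CHS3) lie as well.

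Late heart stage embryos, dissected by hand, gave the RNA for 21 libraries of 7 genotypes with 3 biological replicates each. Growth was at 22 °C under 16 h of light, and no pathogen or chemical treatment is named in the labels. The mutations lie in ASIL1 and ASIL2, which encode related trihelix transcription factors. The double mutant asil1-1 asil2-2 has a mixed Columbia-0/Landsberg erecta ecotype in the labels. The single mutant asil2-2 is in Ler, and Ler itself is the wild type of that background. The libraries labelled asil1-1 asil2-1 and the single mutants asil1-1 and asil2-1 are in Col-0, with Col-0 as their wild type. The labels do not give the cross that made the mixed background, the generation used or how many plants each library pooled.

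NLR receptors (nucleotide-binding, leucine-rich repeat proteins) sit inside plant cells and start a defence response when they detect a pathogen effector or its action on a host protein. Those with a TIR domain at the front signal through EDS1 and its partners, while those with a coiled-coil domain form a separate class. NLR genes often stand in tandem clusters of near-identical copies and are among the genes that vary most between Arabidopsis accessions, in sequence and in presence. Too much activity of some of them, SNC1 among them, makes plants autoimmune and dwarfed.

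Total counts per library ran from 1.49 M to 8.19 M (M is 1000000 counts). Replicate 1 of asil1-1 asil2-1 and replicate 2 of asil1-1 asil2-2 stood apart: their median correlation of log2 CPM (counts per M, scaled by TMM) with the other libraries, across genes, was 0.75 and 0.851, against 0.934 to 0.967 for the rest. In the first, the locus AT5G18610 took 45.7% of all counts. The second was the shallowest library. ASIL1 was at 2.63 to 5.75 CPM in asil1-1 asil2-2, 2.73 to 5.25 CPM in asil1-1 asil2-1 and 1.28 to 1.87 CPM in asil1-1, against 32.4 to 67.8 CPM in the genotypes without asil1-1. ASIL2 was at 0 to 13.5 CPM in asil1-1 asil2-2 and 9.58 to 9.90 CPM in asil2-2, against 51.0 to 53.6 CPM in Ler. It was at 42.1 to 61.5 CPM in the libraries labelled asil1-1 asil2-1 and 37.6 to 48.2 CPM in those labelled asil2-1, against 48.2 to 56.0 CPM in Col-0. Its read count thus did not mark the asil2-1 label as clearly as asil2-2, although no library labelled asil2-1 exceeded a Col-0 library. Libraries labelled asil1-1 asil2-1 overlapped Col-0, and both names are used below only as labels. All 12 embryo markers were detected in every genotype. Their summed level was 1370 to 1450 CPM in asil2-2, against 1220 to 1350 CPM in libraries labelled asil2-1, without overlap. The summed level of the 9 endosperm markers was 86.0 to 95.1 CPM in asil2-2, against 116 to 148 CPM in libraries labelled asil2-1, with MINI3 at 0 there. That of the 8 seed coat markers was 403 to 891 CPM in asil2-2, against 635 to 1100 CPM in libraries labelled asil2-1. The part of these tissues in the results below was not tested. In bulk embryos, fewer cells expressing a gene and less RNA per cell cannot be told apart.

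The sequences below, which encode the first nucleotide-binding motif (the P-loop), show how close some members are to each other and why their reads can be hard to assign. Each is a stretch of 60 bases of coding sequence from RefSeq (build TAIR10.1, the Col-0 sequence), and the capitals mark the 24 bases that encode the motif:
RPP4 (AT4G16860), chr4:9491862-9491921, minus strand: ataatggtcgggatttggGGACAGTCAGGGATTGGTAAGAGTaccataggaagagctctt
SNC1 (AT4G16890), chr4:9504704-9504763, minus strand: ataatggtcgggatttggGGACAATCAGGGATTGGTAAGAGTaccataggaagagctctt
AT4G16920, chr4:9524869-9524928, minus strand: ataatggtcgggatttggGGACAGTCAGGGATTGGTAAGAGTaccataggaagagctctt
RPP5 (AT4G16950), chr4:9543528-9543587, minus strand: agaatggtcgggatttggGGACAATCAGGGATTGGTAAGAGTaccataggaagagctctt
AT4G19510, chr4:10634588-10634647, plus strand: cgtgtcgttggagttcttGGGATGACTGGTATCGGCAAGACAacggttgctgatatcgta
DAR4 (AT5G17890), chr5:5917928-5917987, plus strand: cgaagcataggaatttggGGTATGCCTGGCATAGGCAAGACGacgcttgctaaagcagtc
AT5G46510, chr5:18861155-18861214, plus strand: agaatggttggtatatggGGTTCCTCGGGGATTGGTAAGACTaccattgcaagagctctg
AT5G46520, chr5:18868541-18868600, plus strand: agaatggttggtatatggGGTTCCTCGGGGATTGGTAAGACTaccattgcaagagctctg
AT5G48620, chr5:19717961-19718020, plus strand: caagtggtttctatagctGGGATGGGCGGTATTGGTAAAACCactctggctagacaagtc
AT4G19500, whose protein has 2 matches to the motif, is not printed. RPP4 and AT4G16920 were identical over these 60 bases, and the 4 members of the RPP5 cluster were 96.7% to 100% identical to each other. AT5G46510 and AT5G46520 were also identical. AT5G48620, a receptor of the coiled-coil class, was 46.7% to 55.0% identical to the members printed here. Over whole exons, 45.1% of the 50-base stretches of RPP5, 39.4% of AT4G16920, 29.1% of RPP4 and 21.2% of SNC1 occur exactly elsewhere in the reference genome. The share was 66.2% for AT5G46520, 49.5% for AT5G46510 and 13.6% for AT5G48620. No such stretch was found for AT4G19500, AT4G19510 or DAR4, so exact copies in the reference bear on the other 7 members only. The sources used here do not say how reads that map to several places were counted.

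**Figure D1:**
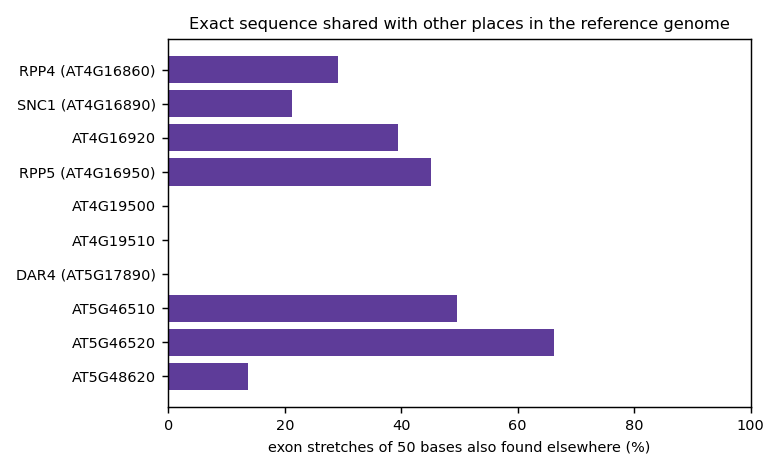
Share of 50-base exon stretches of each NLR gene (horizontal bars, in %) that occur exactly at another place in the TAIR10.1 genome. AT5G46520 had the highest share, 66.2%, and AT4G19500, AT4G19510 and DAR4 had none.

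All Ler reads were counted on the Col-0 sequence (TAIR10, per the submitters' processing notes). A low count in a library with Ler alleles can come from less RNA, from alleles too different to map or from a gene that is missing, and these cannot be told apart. Where a member shares exon stretches with other copies, a higher count can also include reads from those copies, which was not tested. Overlapping loci add to this uncertainty, because strand is not stated for the counting. AT4G16920 overlaps AT4G06440 on its own strand and AT4G16915 on the other, RPP5 overlaps AT4G02965 and AT4G16955, AT5G46510 overlaps AT5G06835, and AT5G48620 overlaps AT5G48630.

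The wild types, which chose the members, are given as a description. Most members were lower in Ler. AT5G46510, a TIR-class receptor, had 0, 0.200 and 0 CPM in Ler, against 73.7, 77.9 and 81.1 CPM in Col-0. These are 1 count against 1169 counts, a ratio of 1230 with an exact 95% counting interval of 220 to 48500, which covers counting error only. DAR4, a TIR-class receptor with an added LIM domain, had no count in Ler, against 435 counts in Col-0, and was at least 152-fold lower on a floor of 3 counts over the group. AT4G19500 averaged 2.59 ± 0.324 CPM in Ler and 56.5 ± 6.08 CPM in Col-0 (SD over 3 libraries, as in every such pair below). Its neighbour AT4G19510 averaged 1.29 ± 0.915 CPM in Ler and 34.9 ± 6.41 CPM in Col-0. AT5G48620 averaged 2.33 ± 0.711 CPM in Ler and 47.5 ± 2.52 CPM in Col-0. These 5 genes were lower in every Ler library.

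Of the RPP5 cluster, 3 members ran the other way between the wild types. AT4G16920 had 12.6, 11.2 and 10.9 CPM in Ler, against 0, 0.341 and 0 CPM in Col-0, or 183 against 2 counts. RPP5 averaged 21.2 ± 3.08 CPM in Ler and 7.04 ± 1.84 CPM in Col-0. RPP4 averaged 15.2 ± 2.35 CPM in Ler and 5.88 ± 2.41 CPM in Col-0. SNC1 stands between RPP4 and AT4G16920 in the cluster and showed the smallest difference, with 11.7 ± 0.952 CPM in Ler and 14.7 ± 3.03 CPM in Col-0. AT5G46520 was close to undetected in both, at 3 counts in Ler and 10 counts in Col-0. At the edge of the choice are thus SNC1 and AT5G46520, whose wild-type differences were -0.32 and -1.69 on the log2 scale, while that of RPP4 was 1.38.

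Per kb of exon, the order in Ler was RPP4 (3.77 CPM per kb), RPP5 (3.65), SNC1 (2.29), AT4G16920 (2.04), AT4G19500 (0.582), AT5G48620 (0.556), AT4G19510 (0.261), AT5G46520 (0.0448) and AT5G46510 (0.0127), with DAR4 at 0. In Col-0 the order was AT5G46510 (14.8 CPM per kb), AT4G19500 (12.7), AT5G48620 (11.3), AT4G19510 (7.08), DAR4 (5.51), SNC1 (2.87), RPP4 (1.46), RPP5 (1.21), AT5G46520 (0.155) and AT4G16920 (0.0200). By counts on the Col-0 models, the top 4 of the list were thus the RPP5 cluster in Ler, and genes of the other regions in Col-0. Neighbours such as RPP4 and RPP5 in either wild type did not differ beyond their spread.

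**Figure D2:**
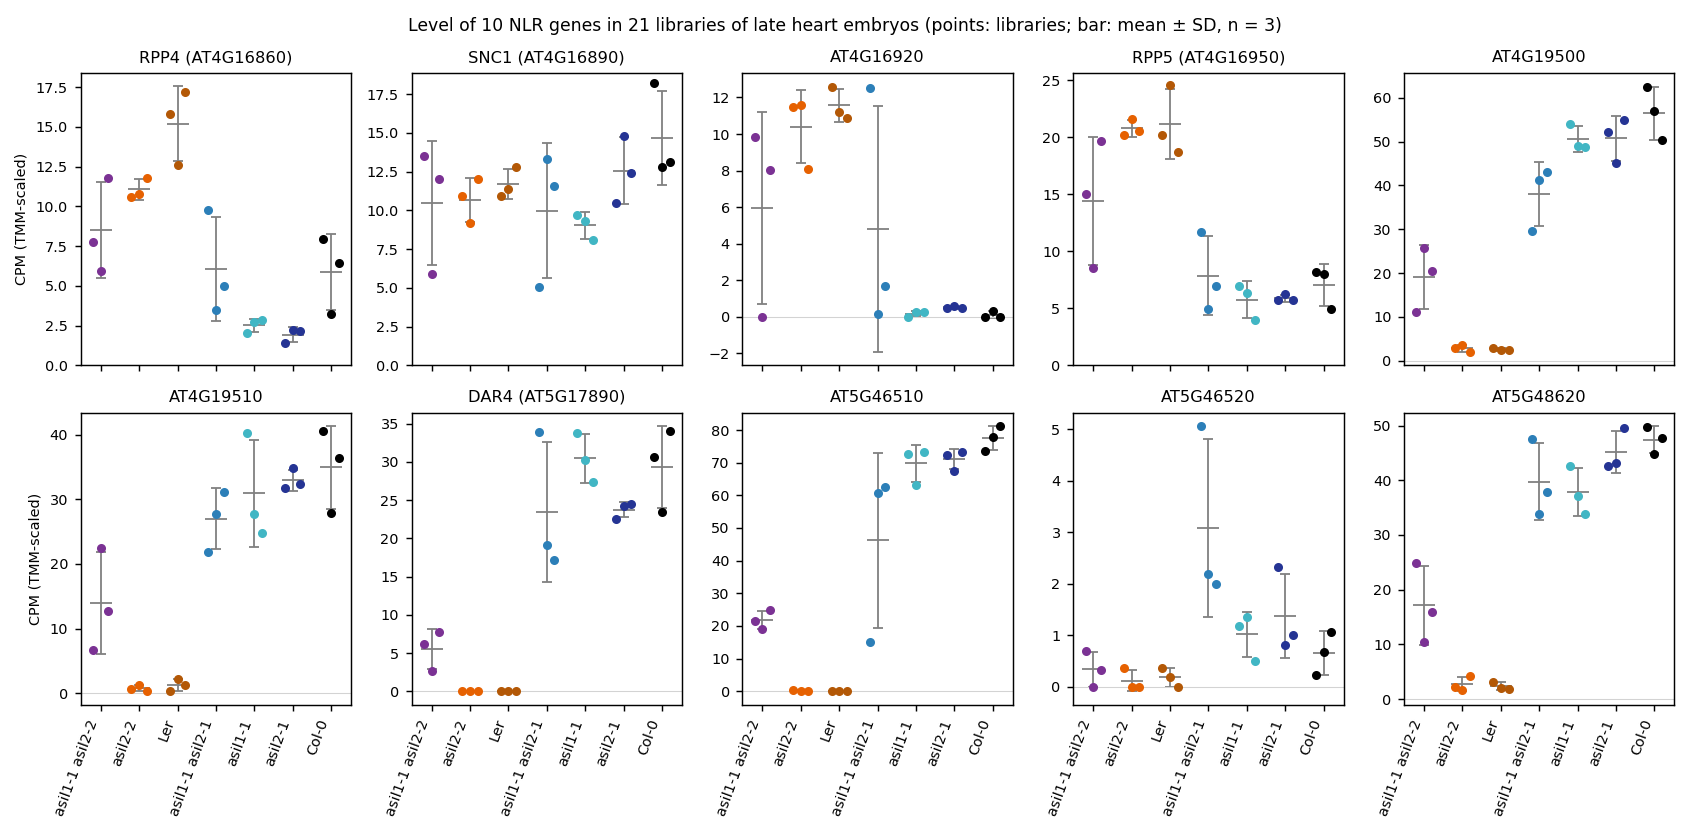
Level of each NLR gene in CPM (vertical axes, TMM-scaled, a separate range for each gene) in the 21 libraries, by genotype. Points are libraries and bars are the mean ± SD of 3 libraries. AT4G19500, AT4G19510, DAR4, AT5G46510 and AT5G48620 were low in asil2-2 and Ler and between those and the Col-0 genotypes in asil1-1 asil2-2.

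The members were next tested in mutant libraries of both ecotypes, with no wild-type library in the contrast. These libraries also differ in the ASIL2 allele, so ecotype and allele cannot be told apart in this contrast. The question was whether the receptors differ in the same direction where asil2-2, in Ler, is set against asil2-1, in Col-0. RPP4, AT4G16920 and RPP5 were higher in asil2-2, and AT4G19500, AT4G19510, DAR4, AT5G46510 and AT5G48620 were lower. SNC1 and AT5G46520 did not pass. Of all 18269 models tested, 4.74% passed edgeR's quasi-likelihood test with a Benjamini-Hochberg adjusted p below 0.05, 1.61% as higher and 3.13% as lower. Of the 10 members, 3 were called higher and 5 lower, and their median log2 fold change was -3.63, against 0.007 over all models. That median was the same with DAR4 at its bound. All 10 members passed the filter on low counts, but DAR4, AT5G46510, AT4G19510, AT4G16920 and AT5G46520 did so through the genotypes where they are high, so the counts of members are descriptions. Since the members were picked for a wild-type difference that also sets asil2-2 apart, a high share of calls among them follows from the choice.

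AT5G46510 showed the widest gap in CPM. It had 0.239, 0 and 0 CPM in asil2-2, against 72.3, 67.5 and 73.3 CPM in libraries labelled asil2-1. The groups did not come near each other, at 2 counts against 1238, a ratio of 771 (exact 95% counting interval 213 to 6370, adjusted p = 6.02e-10). Both of the 2 counts came from replicate 1 of asil2-2. DAR4 had no count in asil2-2 and 22.6, 24.2 and 24.5 CPM in libraries labelled asil2-1, at least 171-fold lower (adjusted p = 8.39e-09). A count of 0 over the group allows up to 0.139 CPM.

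AT4G19500 had 2.98, 3.52 and 1.95 CPM in asil2-2, against 52.2, 45.1 and 55.0 CPM in libraries labelled asil2-1. AT4G19510 had 0.716, 1.27 and 0.325 CPM in asil2-2, against 31.7, 34.8 and 32.4 CPM in libraries labelled asil2-1. These neighbours thus differed in the same direction, by -4.15 ± 0.26 (SE) and -5.36 ± 0.44 on the log2 scale (adjusted p = 6.02e-10 and 3.67e-08). Neither shares an exact 50-base exon stretch with another place in the reference. AT5G48620 had 2.27, 1.69 and 4.22 CPM in asil2-2, against 42.6, 43.2 and 49.5 CPM in libraries labelled asil2-1, a difference of -4.07 ± 0.28 (adjusted p = 3.02e-09). None of these 3 genes was at 0 in any asil2-2 library.

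In the RPP5 cluster, RPP4 and RPP5 are named for recognition of downy mildew. AT4G16920 of this cluster had 11.5, 11.6 and 8.11 CPM in asil2-2, against 0.465, 0.606 and 0.503 CPM in libraries labelled asil2-1 (log2 fold change 4.27 ± 0.95, adjusted p = 0.0076). RPP5 had 20.2, 21.6 and 20.6 CPM in asil2-2, against 5.73, 6.26 and 5.70 CPM in libraries labelled asil2-1 (1.82 ± 0.30, adjusted p = 0.000445). RPP4 had 10.6, 10.8 and 11.8 CPM in asil2-2, against 1.39, 2.22 and 2.18 CPM in libraries labelled asil2-1 (2.52 ± 0.39, adjusted p = 0.000222). The groups did not overlap for any of the 3. SNC1, which lies among them, had 10.9, 9.16 and 12.0 CPM in asil2-2, against 10.5, 14.8 and 12.4 CPM in libraries labelled asil2-1. These values overlapped, and the difference of -0.23 ± 0.28 did not pass (adjusted p = 0.854).

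AT5G46520, known for a root growth response to a small molecule, had 3 counts in asil2-2, all in replicate 1, against 25 counts in libraries labelled asil2-1. The ratio of 10.4 had a counting interval of 3.17 to 53.7, and the adjusted p was 0.0693. It passed with DESeq2 (adjusted p = 0.0446), without replicate 1 of asil2-2 (0.0388) and without both libraries that stand apart (0.0177). Against the 25 counts of AT5G46520 in libraries labelled asil2-1, its neighbour AT5G46510 had 1238 counts there.

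Set against all 9 mutant libraries of Col-0 background, asil2-2 had 3 members called higher and 6 lower, each in the direction of the comparison with asil2-1. Over all models 9.28% were called, 3.49% as higher and 5.79% as lower. The asil2-2 libraries are the same as in the comparison above, so the 2 results are not independent. Ecotype and mutation cannot be told apart in this contrast either. AT5G46520 was the added call, with 3 counts in asil2-2 and 86 in the Col-0 mutants (adjusted p = 0.0155). It was lost without replicate 2 of asil2-2 (adjusted p = 0.134), without replicate 3 (0.118) and without the filter on low counts (0.0573). AT4G16920 had a log2 fold change of 3.77 ± 0.64 (adjusted p = 0.000365), although 1 Col-0-background library overlapped the asil2-2 range. That library, replicate 1 of asil1-1 asil2-1, had 12.5 CPM, against 0.183 and 1.70 CPM in the other 2 replicates. Without it the log2 fold change of AT4G16920 was 4.43. SNC1 differed by 0.01 ± 0.23 and was not called.

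**Figure D3:**
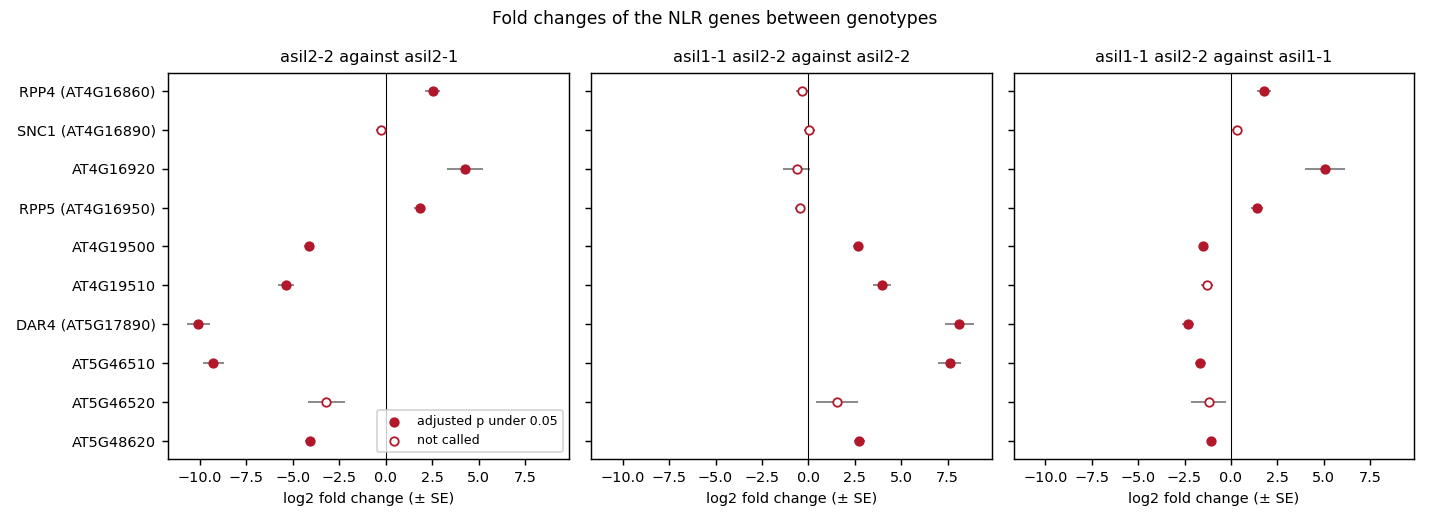
Log2 fold change (horizontal axis, ± SE) of each NLR gene in 3 comparisons, from edgeR fits over all models; filled points had an adjusted p under 0.05. DAR4 and AT5G46510 have 0 and 2 counts in asil2-2, so their fitted values in the left and middle panels are no bounds. Genes lower in asil2-2 than in asil2-1 (left) were higher in asil1-1 asil2-2 than in asil2-2 (middle).

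The double mutant asil1-1 asil2-2 has a mixed ecotype, so its receptors can carry alleles of either ecotype. It also carries asil1-1, which asil2-2 lacks, so mutation and background cannot be told apart in a comparison with asil2-2. Against asil2-2, the 5 genes that are low in Ler were all higher in the double mutant, and no member was lower by the test. Of all models 2.44% were called, 1.89% as higher and 0.553% as lower, and of the members 5 were called higher and 0 lower. DESeq2 also called 0 members lower, and 0 lower members had an unadjusted p below 0.05 in edgeR. DAR4, AT5G46510 and AT5G46520 had 0, 2 and 3 counts in asil2-2, too few for a lower level to be detectable. The members were chosen for wild-type differences, and the asil2-2 libraries are those of the comparisons above. The counts of members and their median are therefore descriptions. The summed embryo markers were at 852 to 1260 CPM in asil1-1 asil2-2, against 1370 to 1450 CPM in asil2-2, and the groups did not overlap. The summed endosperm markers were at 124 to 165 CPM in asil1-1 asil2-2, against 86.0 to 95.1 CPM in asil2-2, and the summed seed coat markers at 585 to 1240 CPM, against 403 to 891 CPM. Their part in these differences was not tested. The median log2 fold change of the members was 2.10, against -0.015 over all models. The 5 calls held with each library left out and with every other alternative run.

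AT5G46510 had 21.6, 19.1 and 24.8 CPM in asil1-1 asil2-2, against 0.239, 0 and 0 CPM in asil2-2. The 305 against 2 counts give a ratio of 246 (exact 95% counting interval 67.6 to 2040, adjusted p = 8.01e-08). The 3 double mutant libraries lay within a narrow range. DAR4 had 6.22, 2.63 and 7.73 CPM in asil1-1 asil2-2, against 0 CPM in each asil2-2 library, at least 46.9-fold higher (adjusted p = 4.56e-06). AT5G48620 had 24.9, 10.5 and 15.9 CPM in asil1-1 asil2-2, against 2.27, 1.69 and 4.22 CPM in asil2-2 (log2 fold change 2.75 ± 0.29, adjusted p = 4.56e-06). For all 3, every library of the double mutant was above every library of asil2-2.

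The pair on chromosome 4 did likewise. AT4G19500 had 11.2, 25.7 and 20.5 CPM in asil1-1 asil2-2, against 2.98, 3.52 and 1.95 CPM in asil2-2 (2.66 ± 0.27, adjusted p = 2.06e-06). AT4G19510 had 6.74, 22.4 and 12.8 CPM in asil1-1 asil2-2, against 0.716, 1.27 and 0.325 CPM in asil2-2 (3.97 ± 0.47, adjusted p = 1.85e-05). In both genes replicate 1 of the double mutant was the lowest and replicate 2 the highest. DAR4 and AT5G48620 had their lowest value in replicate 2.

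The RPP5 cluster did not pass in the same comparison. RPP5 had 15.0, 8.56 and 19.7 CPM in asil1-1 asil2-2, against 20.2, 21.6 and 20.6 CPM in asil2-2, every value below those of asil2-2 but not called (-0.45 ± 0.28, adjusted p = 0.485). RPP4 had 7.77, 5.92 and 11.8 CPM in asil1-1 asil2-2, against 10.6, 10.8 and 11.8 CPM in asil2-2 (-0.32 ± 0.35, adjusted p = 0.719). AT4G16920 had 9.84, 0 and 8.05 CPM in asil1-1 asil2-2, against 11.5, 11.6 and 8.11 CPM in asil2-2 (-0.63 ± 0.72, adjusted p = 0.744). Its 0 came from the shallowest library, replicate 2, where 3 counts are worth 1.97 CPM, less than the level in either other replicate. SNC1 averaged 10.5 ± 4.0 CPM in asil1-1 asil2-2 and 10.7 ± 1.43 CPM in asil2-2 (0.06 ± 0.29, adjusted p = 0.951). AT5G46520 had 6 and 3 counts, too few for a difference to be detectable (adjusted p = 0.578).

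Against asil1-1, which is in Col-0, the double mutant differed at both kinds of receptor. The double mutant also carries asil2-2, which asil1-1 lacks, so mutation and background cannot be told apart here. RPP4, AT4G16920 and RPP5 were called higher, and AT4G19500, DAR4, AT5G46510 and AT5G48620 lower, that is 3 and 4 of the 10 members. Over all models 1.28% were called, 0.690% as higher and 0.586% as lower. The members' median log2 fold change was -1.13, against -0.01 over all models. The double mutant libraries are shared with the comparison to asil2-2, so the values stand side by side and are not separate evidence.

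DAR4 averaged 5.52 ± 2.62 CPM in asil1-1 asil2-2 and 30.5 ± 3.21 CPM in asil1-1 (-2.31 ± 0.30, adjusted p = 0.000364). AT4G19500 averaged 19.1 ± 7.32 CPM in asil1-1 asil2-2 and 50.6 ± 2.97 CPM in asil1-1 (-1.48 ± 0.22, adjusted p = 0.000654). AT5G46510 averaged 21.8 ± 2.87 CPM in asil1-1 asil2-2 and 69.8 ± 5.62 CPM in asil1-1 (-1.65 ± 0.30, adjusted p = 0.00496). These 3 genes were called whichever library was left out. AT5G48620 averaged 17.1 ± 7.24 CPM in asil1-1 asil2-2 and 37.9 ± 4.41 CPM in asil1-1 (-1.06 ± 0.24, adjusted p = 0.0253). This call was lost in a fit of the compared groups (adjusted p = 0.146), without replicate 2 or 3 of the double mutant (0.0785 and 0.0874) and without replicate 1 or 2 of asil1-1 (0.134 and 0.0887). AT4G19510 averaged 14 ± 7.88 CPM in asil1-1 asil2-2 and 31.0 ± 8.20 CPM in asil1-1 and did not pass (-1.29 ± 0.33, adjusted p = 0.0611). It passed without replicate 2 of the double mutant (0.0113), without both libraries that stand apart (0.00148) and with DESeq2 (0.013).

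RPP4 averaged 8.51 ± 3.02 CPM in asil1-1 asil2-2 and 2.52 ± 0.420 CPM in asil1-1 (1.80 ± 0.38, adjusted p = 0.0152). RPP5 averaged 14.4 ± 5.61 CPM in asil1-1 asil2-2 and 5.77 ± 1.59 CPM in asil1-1 (1.40 ± 0.30, adjusted p = 0.0181). AT4G16920 had 9.84, 0 and 8.05 CPM in asil1-1 asil2-2, against 0, 0.246 and 0.256 CPM in asil1-1 (5.06 ± 1.08, adjusted p = 0.0163), and the groups overlapped because of the 0. All 3 adjusted p-values lay near the threshold. With 1 library left out, the log2 fold change was 1.48 to 1.94 for RPP4, 4.63 to 5.47 for AT4G16920 and 1.13 to 1.60 for RPP5. The call of RPP4 was lost without replicate 3 of the double mutant (adjusted p = 0.0792), without each asil1-1 library (0.0967, 0.0702 and 0.0528 for replicates 1, 2 and 3) and in a fit of the compared groups (0.104). AT4G16920 was lost without replicate 1 of the double mutant (0.0734) and without each asil1-1 library (0.102, 0.0951 and 0.0767). RPP5 was lost without replicate 1 or 3 of the double mutant (0.0561 and 0.0903), without replicate 2 or 3 of asil1-1 (0.0687 and 0.127) and in a fit of the compared groups (0.159). SNC1 (0.30, adjusted p = 0.727) and AT5G46520 (-1.20, adjusted p = 0.656) were not called.

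To see whether the receptors follow their surroundings in the mixed background, each locus was placed on a scale on which the Ler mean is 1 and the Col-0 mean is 0. The scale was applied to 330 other loci that differed by at least 4-fold (2 on the log2 scale) between asil2-2 and asil2-1 and by at least 1 on the log2 scale between the wild types. Over these loci the median position of asil1-1 asil2-2 was 0.459 on log2 CPM and 0.519 on linear CPM. In its replicates 1, 2 and 3 the median was 0.391, 0.396 and 0.56 on log2 CPM, or 0.478, 0.444 and 0.682 on linear CPM. All 3 libraries of asil1-1 lay at 0.000 to 0.013 on linear CPM. On the linear scale 98 of the 330 loci lay under 0.25, 132 between and 100 above 0.75, so the double mutant was not at 1 point of the scale throughout. By chromosome, the log2 median was 0.122 on chromosome 1 (91 loci), 0.798 on chromosome 2 (47), 0.574 on chromosome 3 (53), 0.451 on chromosome 4 (57) and 0.664 on chromosome 5 (82). The 5 receptor regions are on the last 2 of these.

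**Figure D4:**
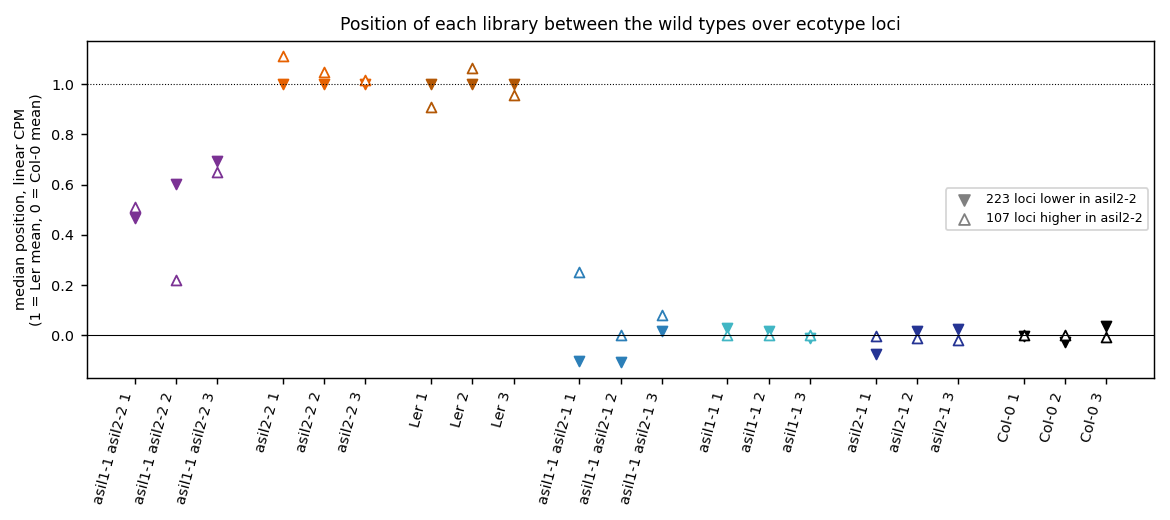
Median position of each library between the wild types (vertical axis, linear CPM, 1 for the Ler mean and 0 for the Col-0 mean), over the loci lower and the 107 loci higher in asil2-2 than in asil2-1. The asil1-1 asil2-2 libraries lay between the wild types, with 0.602 and 0.219 for the 2 kinds of loci in replicate 2.

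The libraries that stand apart did so here too. Replicate 1 of asil1-1 asil2-1, a Col-0-background genotype, had a median of 0.513 on log2 CPM at the 107 loci higher in asil2-2, against 0.019 and 0.245 in replicates 2 and 3. On linear CPM it had 0.252 at these loci, against 0 and 0.079. At the 223 loci lower in asil2-2 it had -0.043 on log2 CPM, with -0.058 and -0.008 in replicates 2 and 3. On linear CPM it had -0.104 there, with -0.108 and 0.017 in replicates 2 and 3. The same library had 12.5 CPM of AT4G16920, a level within the range of the Ler libraries, and 15.2 CPM of AT5G46510, against 60.7 and 62.6 CPM in the other replicates. Its DAR4 and AT5G48620 values, 33.9 and 47.6 CPM, were the highest of its genotype.

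On the linear scale the receptors that are low in Ler lay at 0.812 for DAR4, 0.719 for AT5G46510, 0.693 for AT4G19500, 0.672 for AT5G48620 and 0.623 for AT4G19510 in asil1-1 asil2-2. On log2 CPM, where the Ler end depends on the prior count of genes near 0, the same genes lay at 0.382, 0.240, 0.379, 0.367 and 0.314. All 5 were thus between the wild types on either scale, but nearer to Ler on the linear one and nearer to Col-0 on the log2 one. In the RPP5 cluster the linear positions were 0.524 for RPP5, 0.511 for AT4G16920 and 0.283 for RPP4, and the log2 positions 0.611, 0.593 and 0.387. For RPP4, asil1-1, which is in Col-0, lay at -0.361 on linear CPM and -0.749 on log2 CPM. The position of RPP4 is thus uncertain at the Col-0 end. By library, AT4G16920 ran to -0.01 in replicate 2 of the double mutant, against 0.849 and 0.693 in replicates 1 and 3. For SNC1 and AT5G46520 the wild types differ too little for a position to be read.

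Few other ecotype loci stand near the receptors, so the comparison with neighbours rests on 2 to 4 loci a region. Within 500 kb of the RPP5 cluster, 4 loci had a median of 0.717 on log2 CPM (0.059 to 0.836) and 0.840 on linear CPM (0.186 to 0.885). The lowest on both scales was TIP2;2, a tonoplast water channel gene, which lay near the Col-0 end. Another 2 are close by: AT4G16960, another TIR-class receptor, averaged 1.72 ± 0.791 CPM in asil1-1 asil2-2, between 0.632 ± 0.0961 CPM in Ler and 7.49 ± 2.60 CPM in Col-0. EXLB1, an expansin-like gene, averaged 1.07 ± 0.924 CPM in asil1-1 asil2-2, between 0.504 ± 0.381 CPM in Ler and 5.37 ± 1.63 CPM in Col-0. Both lay above 0.8 on the linear scale, further to the Ler end than RPP4, AT4G16920 and RPP5. On log2 CPM the gap was smaller for AT4G16960, at 0.66 beside 0.611 for RPP5, 0.593 for AT4G16920 and 0.387 for RPP4. EXLB1 lay at 0.84 on log2 CPM. Of the 50-base exon stretches of AT4G16960, 56.7% occur exactly elsewhere in the cluster. The counts of all these genes are low, and the difference between them was not tested.

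Around AT4G19500 and AT4G19510, 4 loci had a median of 0.516 on log2 CPM and 0.384 on linear CPM, with linear values from 0.212 to 0.953. The nearest, AT4G19240, averaged 57.4 ± 27.7 CPM in asil1-1 asil2-2, between 116 ± 11.3 CPM in Ler and 0.273 ± 0.136 CPM in Col-0. Its linear position of 0.49 was lower than that of either receptor. On log2 CPM the order was reversed, at 0.85 beside 0.379 for AT4G19500 and 0.314 for AT4G19510. Around DAR4, 3 loci had a median of 0.719 on log2 CPM and 0.748 on linear CPM. One of them is CSA1, the receptor gene that stands beside DAR4 in a head-to-head pair and whose protein works with that of DAR4. CSA1 averaged 1.59 ± 1.64 CPM in asil1-1 asil2-2, between 0.128 ± 0.111 CPM in Ler and 10.6 ± 2.58 CPM in Col-0, at a linear position of 0.86 beside 0.812 for DAR4. On log2 CPM the positions were further apart, at 0.67 for CSA1 and 0.382 for DAR4. Near AT5G46510, AT5G46230 and AT5G45490 lay at 0.43 and 0.35 on the linear scale, beside 0.719 for the receptor. On log2 CPM they lay at 0.18 and 0.16 (median 0.171), beside 0.240. The 3 loci near AT5G48620 ran from -0.047 to 0.746 on linear CPM, with a median of 0.598, and had a median of 0.209 on log2 CPM. Replicate values varied so much at low counts that shared positions of receptor and neighbour were not tested.

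**Figure D5:**
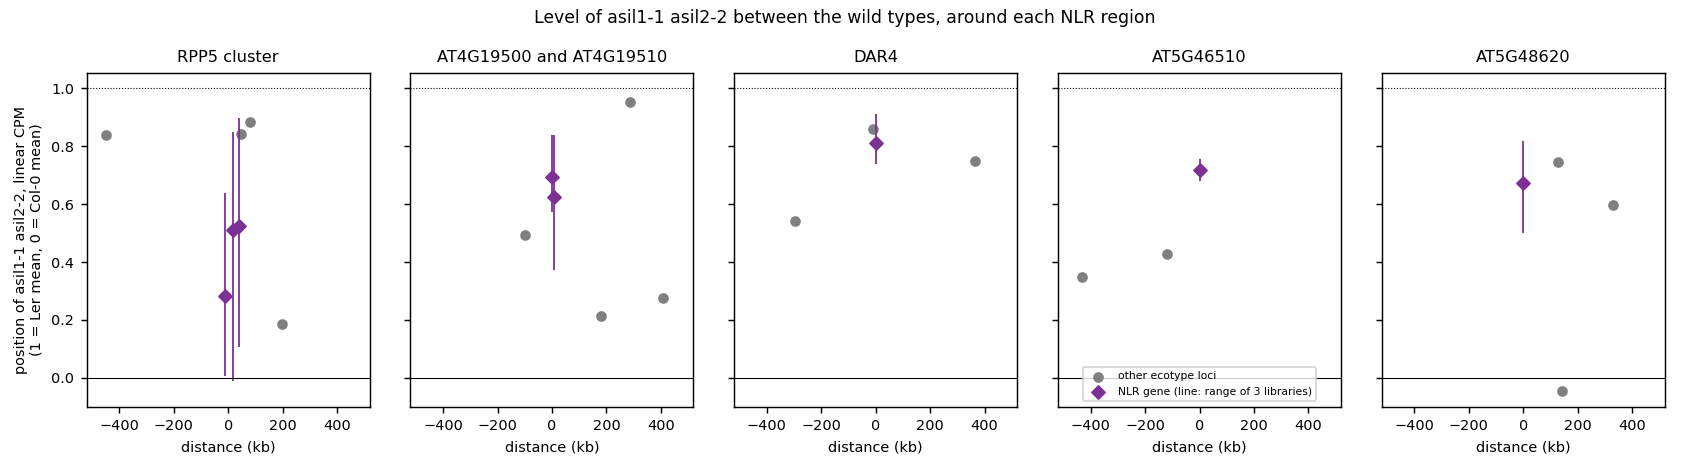
Position of asil1-1 asil2-2 between the wild types (vertical axis, linear CPM, 1 for the Ler mean and 0 for the Col-0 mean) against distance from each receptor region (horizontal axis, kb). Diamonds are the NLR genes with the range of 3 libraries, and grey points the other ecotype loci. DAR4 at 0.812 stood near its neighbour CSA1 at 0.86, and RPP4 at 0.283 stood below AT4G16960 and EXLB1 and above TIP2;2 at 0.186. For RPP4, asil1-1, which is in Col-0, lay at -0.361.

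Within a background, the asil mutations were set against their own wild types. These libraries include the wild-type ones that chose the members, and asil1-1, asil2-1 and asil1-1 asil2-1 share the Col-0 libraries. No member was called in any of the 4 comparisons with edgeR's quasi-likelihood test, where 0.0328% of all models were called for asil1-1, 0.0109% for asil2-1, 0.0219% for asil1-1 asil2-1 and 0.0712% for asil2-2 against Ler. At an unadjusted p under 0.05 there were 2, 1, 4 and 0 members, beside 453, 316, 2942 and 471 models in all. DESeq2 called 0, 0, 1 and 0 members. A p that misses the threshold does not show that the levels are alike.

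RPP4 came nearest in the single mutants. It had 2.04, 2.70 and 2.82 CPM in asil1-1 and 1.39, 2.22 and 2.18 CPM in libraries labelled asil2-1, against 7.97, 3.24 and 6.42 CPM in Col-0. It was lower in every library of both mutants, by -1.19 ± 0.38 and -1.59 ± 0.41 on the log2 scale, with adjusted p = 1 and 0.891. In asil1-1 asil2-1 it had 9.76, 3.47 and 4.97 CPM, which overlapped Col-0. AT4G16920 was the call of DESeq2 (adjusted p = 0.0462) in asil1-1 asil2-1, with 45 counts against 2 in Col-0, a ratio of 22.5 (exact 95% counting interval 5.87 to 191). In edgeR its adjusted p was 0.167, and 0.0392 without replicate 2 of asil1-1 asil2-1. The difference rests on replicate 1, which stands apart, with 12.5 CPM against 0.183 and 1.70 CPM in the others, and the adjusted p was 0.53 without it.

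In the Ler background, asil2-2 averaged 11.1 ± 0.651 CPM of RPP4 and Ler 15.2 ± 2.35 CPM. RPP5 averaged 20.8 ± 0.711 CPM in asil2-2 and 21.2 ± 3.08 CPM in Ler. AT5G48620 averaged 2.73 ± 1.32 CPM in asil2-2 and 2.33 ± 0.711 CPM in Ler. DAR4 had no count in either, so no fold is given.

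The other NLR genes on a list drawn up for this comparison, with earlier results known, were tested in the same fit. The filter on low counts kept 44 of the 52 genes, and 4 were higher and 8 lower in asil2-2 than in asil2-1, 27.3% against 4.74% of all models. Within the RPP5 cluster, AT4G16900 (-1.71 ± 0.39, adjusted p = 0.0103) and AT4G16960 (-2.86 ± 0.72, adjusted p = 0.0201) were lower in asil2-2, opposite to RPP4, AT4G16920 and RPP5. AT4G16960 shares 56.7% and AT4G16900 10.0% of their 50-base exon stretches with the rest of the cluster, so their counts are uncertain in the same way. CSA1 had no count in asil2-2 and 174 in libraries labelled asil2-1, at least 72.2-fold lower (adjusted p = 4.79e-07). AT5G35450, of the coiled-coil class, was lower (-3.70 ± 0.52, adjusted p = 7.97e-05). AT1G58602, an NB-ARC receptor gene, was higher, at 39.7 ± 2.80 CPM in asil2-2 and 1.85 ± 0.733 CPM in libraries labelled asil2-1 (adjusted p = 3.61e-07).

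In asil1-1 asil2-2 against asil2-2, 2 of the 44 were higher and 1 lower, or 6.82%, against 2.44% of all models (1.89% higher and 0.553% lower). CSA1, 1 of the 2 that were higher, had 28 counts in asil1-1 asil2-2 and 0 in asil2-2 (adjusted p = 0.000693). AT1G58602 averaged 2.28 ± 2.49 CPM in asil1-1 asil2-2 and 39.7 ± 2.80 CPM in asil2-2 (-3.78 ± 0.41, adjusted p = 6.03e-06). AT1G58602 lies on chromosome 1, where the double mutant was nearest to Col-0. Against asil1-1, where 1.28% of all models were called and 0.586% as lower, 2 of 44 were lower, namely CSA1 (-2.27 ± 0.45, adjusted p = 0.00975) and AT5G35450 (-2.22 ± 0.46, adjusted p = 0.0135).

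No gene of 3 lists of NLR partners was called between asil2-2 and asil2-1. The lists held 5 helper NLR genes, 11 signalling and chaperone genes (EDS1 and its partners among them) and 10 tested regulators of NLR level. Of these 26 genes, 0 were called by edgeR and 0 by DESeq2, and 0 had an unadjusted p below 0.05 in edgeR, where 4.74% of all models were called. Between asil2-2 and the Col-0 mutants both tools called 0, beside 9.28% of all models called by edgeR, and 2 genes had an unadjusted p below 0.05. Between asil1-1 asil2-2 and asil2-2 both tools called 0 and 1 gene had an unadjusted p below 0.05, and between asil1-1 asil2-2 and asil1-1 all 3 counts were 0. Of 6 tested genes of the salicylic acid branch, NPR1, a salicylic acid receptor and coactivator, was lower in asil2-2. It averaged 3.98 ± 0.655 CPM in asil2-2 and 26.8 ± 1.36 CPM in libraries labelled asil2-1 (-2.74 ± 0.32, adjusted p = 7.07e-06). NPR1 was higher in asil1-1 asil2-2 than in asil2-2, at 18.2 ± 8.60 CPM against 3.98 ± 0.655 CPM (2.27 ± 0.33, adjusted p = 0.000205).

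Likeness across the 21 libraries, as Pearson's r of log2 CPM, is a description in which all points share genotype and library. AT5G46510 was most like AT5G56380 (r = 0.993), AT4G19500 most like AT5G46510 (0.981), AT4G19510 most like AT4G19500 (0.978), and DAR4 and AT5G48620 most like each other (0.986). The 5 genes low in Ler correlated with one another at 0.926 to 0.986. RPP5 was most like AT3G09110 (0.944), AT4G16920 most like AT4G22960 (0.948), RPP4 most like AT5G39770 (0.888), AT5G46520 most like AT3G44080 (0.927) and SNC1 most like BRXL4 (0.873). SNC1 thus had the weakest best match.

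The W-box core TTGAC, bound by WRKY factors of the defence response, was searched on both strands (as TTGAC or GTCAA) in the 250 bases before each annotated start. It occurred in 4 of the 10 members, against 44.9% of 27443 protein-coding genes, and at least 2 times in 2 members, against 14.1%. AT5G46510 held 5 copies and AT4G19510 held 3, while SNC1 and DAR4 held 1 each. The members with most copies are printed below, from RefSeq (TAIR10.1), with each copy in capitals:
AT4G19510, chr4:10633369-10633618, plus strand: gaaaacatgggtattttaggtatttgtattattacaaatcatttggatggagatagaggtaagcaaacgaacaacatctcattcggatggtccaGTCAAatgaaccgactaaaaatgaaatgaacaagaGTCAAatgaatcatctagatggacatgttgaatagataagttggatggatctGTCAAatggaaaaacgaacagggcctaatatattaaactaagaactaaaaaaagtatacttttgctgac
AT5G46510, chr5:18859984-18860233, plus strand: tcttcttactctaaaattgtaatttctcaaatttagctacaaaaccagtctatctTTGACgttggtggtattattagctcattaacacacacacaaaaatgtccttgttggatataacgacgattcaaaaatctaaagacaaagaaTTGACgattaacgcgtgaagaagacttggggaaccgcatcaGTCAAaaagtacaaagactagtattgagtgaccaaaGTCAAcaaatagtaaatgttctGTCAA
Both genes were low in Ler and asil2-2, as were DAR4, with 1 copy, and AT4G19500 and AT5G48620, whose windows held no copy. A part of the motif in these levels was not tested. All windows are Col-0 letters only, and a match is a description of the sequence, not a binding site.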

How the data were processed

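The authors deposited read counts per gene model, 1 table per library, as whole numbers that are not normalized. Per the submitters' processing notes, Bowtie 0.12.7 and edgeR 3.0.8 were used with TAIR10. Neither the counting rule nor the handling of multiply mapped reads and strand is stated in the sources used here. Tables were joined with 0 for unlisted models, giving 26496 models, of which 26100 matched a locus of TAIR10.1. No 2 of the 21 replicate pairs were identical. The members, gene lists, tests and named genes were chosen with earlier results of these data known.

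All 21 libraries entered 1 edgeR 4.0.16 fit (R 4.3.3) of 7 groups with TMM scaling, after filterByExpr (minimum count 10, minimum total 15), which left 18269 models. Contrasts used the quasi-likelihood test, with Benjamini-Hochberg adjustment over all models and a threshold of 0.05. Scripts were tested on simulated data. CPM uses TMM-scaled library sizes, and log2 CPM a prior count of 2. Standard errors are approximate (log2 fold change over the root of F). A group at 0 gives a bound on 3 counts over the group, and 1 to 3 counts give a count ratio with an exact 95% interval. Replicates are biological per the labels. The p-values set a difference against the spread between replicate libraries, estimated over all 7 groups of the fit.

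Named genes are all 10 members, up to 4 called genes per list and comparison with the lowest adjusted p, the 3 most correlated models and the 2 nearest ecotype loci on either side within 500 kb. Some genes that the rule names are not reported here. The alternatives comprised RLE scaling, no filter on counts, a replicate block, a fit of the compared groups, DESeq2 1.42.0, both libraries that stand apart left out and each library left out in turn. For positions they were a lower fold threshold and a 200 kb window, and, chosen after the data were seen, linear CPM and separate medians for loci lower and higher. Tables and figures used Python 3.11.15, pandas 2.3.3 and matplotlib 3.10.9.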

Additional observations from a re-analysis of the deposited data

How the results depend on the processing

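Calls of single members that changed are given beside them above, and depth limits AT5G46520. The 866 models called in asil2-2 against asil2-1 became 2284 without both libraries that stand apart and 1521 in a fit of the compared groups (545 to 632 with 1 library left out). The 1695 against the Col-0 mutants became 3867 without both (926 to 2930). The 446 in asil1-1 asil2-2 against asil2-2 became 744 without both, 150 in a fit of the compared groups and 868 with DESeq2 (204 to 788). The 233 against asil1-1 became, in that order, 612, 85 and 499 (110 to 315), and its 7 called members became 3 in a fit of the compared groups (3 to 7). Against the own wild type, counts became, in that order, 35, 24 and 15 from 6 for asil1-1 (2 to 4) and 5 with DESeq2 from 2 for asil2-1 (0 with 1 library left out). For asil1-1 asil2-1 they became 26, 0 and 273 from 4 (2 to 239), with 1 called member in DESeq2 (0 to 1 with 1 library left out). For asil2-2 they became 48, 27 and 24 from 13 (5 to 10). The cause was not tested.

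SNC1 changed sign where it was not called. In asil2-2 against the Col-0 mutants its log2 fold change was -0.07 without both libraries that stand apart (-0.07 to 0.11 with 1 library left out), and in asil1-1 asil2-2 against asil2-2 it ran from -0.13 to 0.26 with 1 left out. Within a background, where no member was called, the sign changed in asil1-1 asil2-1 against Col-0 for RPP4, at 0.01 with RLE scaling and with DESeq2, 0.05 in a fit of the compared groups and -0.44 to 0.25 with 1 library left out, and for RPP5, at -0.23 without both libraries that stand apart and -0.23 to 0.32 with 1 left out. Other signs changed only with 1 library left out: AT4G16920 (-0.06 to 3.22) and DAR4 (-0.08 to 0.18) in asil1-1, AT4G19510 (-0.22 to 0.04) in asil2-1, and RPP5 (-0.11 to 0.09), AT4G19500 (-0.04 to 0.32) and AT5G48620 (-0.23 to 0.47) in asil2-2 against Ler. The median position near AT4G19500 and AT4G19510 was 0.187 with a fold threshold of 1 on the log2 scale. On linear CPM it was 0.388 near AT5G46510 and 0.598 near AT5G48620. On log2 CPM it was 0.639 over all loci higher in asil2-2. With 1 double mutant library left out, the log2 median ran from 0.578 to 0.873 near the RPP5 cluster and from 0.106 to 0.212 near AT5G46510.

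The libraries were not treated as paired by the replicate numbers in the labels. Correlations of same-numbered deviations ran from -0.122 to 0.334, and in no tested comparison were all 3 above 0.1. With 3 libraries a group, such correlations cannot settle whether libraries of the same number belong together. With the number as a replicate block, 8 members were called in asil2-2 against asil2-1, 9 against the Col-0 mutants, 5 in asil1-1 asil2-2 against asil2-2 and 7 against asil1-1, as without it. Models called became 4 in asil2-1 and 20 in asil1-1 asil2-1 against Col-0.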
